A study of Mus musculus with 104 samples.

Results

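D2 is a GalNAc-conjugated siRNA against mouse Hao1 that carries 1 glycol nucleic acid cytosine (GNA-C) at guide position 5, inside the seed. The 4 libraries whose treatment label is siRNA_D2_50nM were compared with the 8 libraries labelled mock, these being 2 of the 25 labelled groups in the series. All were primary mouse hepatocytes (PMH) transfected with Lipofectamine RNAiMax in 384-well plates and collected after 24 h, the mock wells being the transfection control and the D2 wells receiving the siRNA at 50 nM. The same hepatocytes with D2 at 10, 1 or 0.1 nM, with the parent siRNA D1, with the isomeric GNA-isoC siRNA D3 and with the Ttr siRNA D5, the last 3 at 50 nM, served as further comparisons with 4 libraries each. The labels give no strain, sex or age for the hepatocytes and do not say whether libraries of a group came from separate cultures or animals, so p-values measure only the spread between these libraries, which may be technical.

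An siRNA guide strand loaded into Argonaute cleaves an mRNA that it matches along its length, and it can also lower other mRNAs that match only its seed, the bases near its 5′ end, mostly through sites in the 3′-UTR. GNA is an acyclic nucleotide analogue with a shortened backbone, and placing 1 GNA residue in the seed weakens seed pairing. Hao1 encodes hydroxyacid oxidase 1, the peroxisomal glycolate oxidase of hepatocytes, whose product glyoxylate is a precursor of oxalate. Primary hepatocytes lose part of their liver-specific expression in culture while cytoskeletal and growth genes become active, so effects of an siRNA are read on top of a changing cell state.

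The Hao1 target site is shown because it holds the 8 bases against which all seed matches were searched. It lies at chr2:134340220-134340242 of GRCm39 on the minus strand, in the coding sequence of exon 8 of 8 of the canonical Hao1 transcript. Capitals mark the complement of guide positions 2 to 8 followed by the A opposite guide position 1, and the fourth capital is the base opposite GNA-C.
Hao1 target site: cagaatgtgaaagtcATCGACAA

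The D2 50 nM libraries held 4551841 to 5204604 gene counts and the mock libraries 3409963 to 5308584. The share of counts on ERCC spike-ins was 0.522 to 0.759% with D2 and 0.453 to 0.790% in mock, and the share on mitochondrial genes was 3.04 to 3.49% against 2.98 to 3.34% (exact permutation p = 0.246 and 0.0525, two-sided, n = 4 and 8). All 18 hepatocyte markers were measured well enough to be tested, with a summed level of 25069 to 28542 CPM (counts per one-millionth of the TMM-scaled library total) in D2 and 20843 to 25471 CPM in mock. Markers of other liver cells were sparse: 1 of 17 macrophage, 2 of 15 endothelial, 2 of 14 stellate and 1 of 13 lymphocyte and neutrophil markers passed the filter on low counts, and 10, 3, 1 and 8 of them had no read in any of the 12 libraries. Of 10 cholangiocyte markers 7 were tested, with a summed level of 253 to 296 CPM in D2 and 271 to 295 CPM in mock.

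Hao1 was read 11, 5, 10 and 8 times in the 4 D2 libraries, or 2.23, 1.03, 1.94 and 1.77 CPM. In mock its level ran from 27.8 over a median of 33.9 to 38.7 CPM, so the groups lay far apart. D2 left 5.17% ± 1.52 (SD, n = 4) of the mock mean, a log2 fold change of -4.25 ± 0.18 (SE, edgeR adjusted p = 1.09e-20), and the exact permutation test of the libraries gave p = 0.00404, the smallest that 4 against 8 can give. The fold change was -2.28 with DESeq2 under a prior that shrinks large changes, and the call held. Hao1 stood at 41.0% of the mock mean with 0.1 nM, 6.06% with 1 nM and 4.06% with 10 nM of D2, so most of the decrease was present at 1 nM. At 50 nM D1 left 6.68% ± 5.96 and D3 2.38% ± 1.14 of mock. The 2 pairwise differences in Hao1, D2 minus D1 and D2 minus D3 in log2 CPM, were -0.05 and 0.80, with exact permutation p = 1 and 0.0571 (0.114 after adjustment over the 2 pairs). The 95% interval of the log2 fold change, from an edgeR fit without the filter on low counts, was wide for both, -1.14 to 0.55 against D1 and 0.09 to 2.18 against D3, since 2 to 19 reads per library stood behind the D1 values and 2 to 5 behind D3.

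Of the other genes followed as controls, Ttr was called higher, Gapdh was called lower and F12 was not called. Ttr, the thyroxine carrier transthyretin, was at 810, 844, 848 and 817 CPM with D2 and at 540, 675 and 719 CPM (lowest, median and highest) in mock, an increase of 0.33 ± 0.05 in log2 (SE, edgeR adjusted p = 0.00014) with no overlap. F12, coagulation factor XII, differed by 0.21 ± 0.07 (edgeR adjusted p = 0.0598) and was not called. Gapdh, a glycolytic enzyme often used as a reference gene, fell by 0.16 ± 0.05 (adjusted p = 0.0277), from a mock median of 739 CPM to 640 to 681 CPM.

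Across the transcriptome, 681 of 11279 genes tested, or 6.04%, passed an edgeR adjusted p of 0.05, of which 347 (3.08%) were higher and 334 (2.96%) lower with D2. Changes were small: the median log2 fold change was 0.32 among the genes called higher and -0.33 among those called lower, and 9 genes rose and 4 fell by at least 1 in log2. All 4 D2 libraries lay above or below all 8 mock libraries for 425 genes (3.77%), and 322 of these were also called. The median over all genes tested was 0.00. The number of calls leaned on 2 libraries: it was 366 without D2 replicate 2 and 298 without D2 replicate 3.

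**Figure D1:**
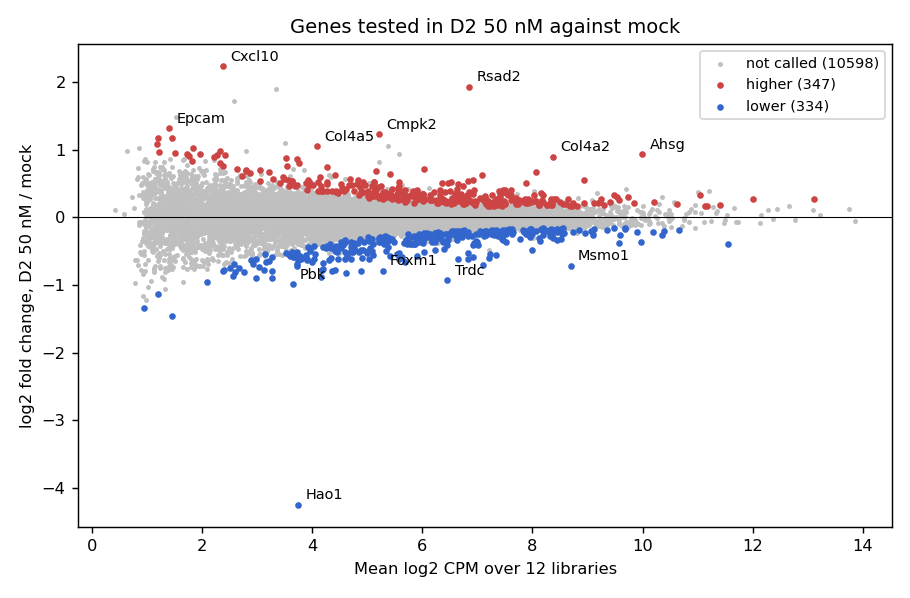
Mean log2 CPM over the 12 libraries (x axis) against the log2 fold change of D2 50 nM over mock (y axis), 1 point per gene tested, red for genes called higher and blue for genes called lower by edgeR. Hao1 at -4.25 stands alone below, and nearly all other called genes lie within 1 log2 unit of 0.

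Genes with a seed match moved little as a group. Guide seed matches were searched in the longest annotated 3′-UTR of each protein-coding gene, on the mRNA strand, as ATCGACA followed by A (mer8), ATCGACA alone (mer7m8) or TCGACA followed by A (mer7A1), each gene being counted under its strongest match. They were found in 41, 157 and 105 of 10676 tested genes that have an annotated 3′-UTR, 2.84% in all. The median log2 fold change with D2 at 50 nM was 0.01 for mer8, 0.01 for mer7m8 and -0.02 for mer7A1 genes, against 0.00 for the 10373 genes without a match. For comparison, with the parent D1 at 50 nM, measured against the same mock libraries, the medians were -0.21, -0.15 and -0.05 against 0.01. In the direct fit of D2 against D1, which does not use mock, they were 0.20, 0.18 and 0.06 against -0.01, so seed-matched genes stood higher with GNA-C than with the parent. Among the 325 genes with a 3′-UTR called lower, 8 (2.46%) held a guide match, and among the 343 called higher 7 (2.04%) did, both near the 2.84% of all genes. For the passenger strand seed the shares were 24.0% of genes called lower, 26.5% of those called higher and 25.1% of all.

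**Figure D2:**
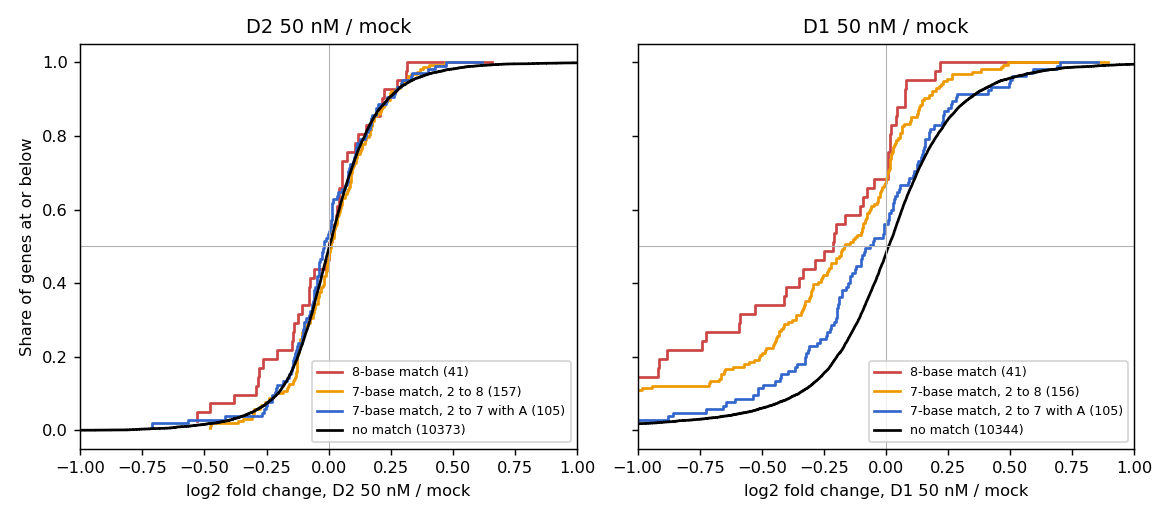
Share of genes (y axis) at or below each log2 fold change (x axis, cut at -1 and 1) for D2 50 nM over mock on the left and D1 50 nM over mock on the right, by strongest guide seed match in the 3′-UTR. The 4 curves lie close together with D2, whose medians are between -0.02 and 0.01, and are spread with D1, where the median of the 8-base matches is -0.21. Both panels use the same mock libraries.

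Of the 41 genes with an 8-base match 4 were called lower (9.76%, against 3.06% of genes without a match) and 0 higher. Rnf115, an E3 ubiquitin ligase, was at 91.8, 85.4, 95.2 and 95.3 CPM with D2 and at 101, 113 and 128 CPM (lowest, median, highest) in mock, with no overlap and a log2 fold change of -0.29 ± 0.06 (edgeR adjusted p = 0.0031). Its level with D1 at 50 nM was 37.0 ± 4.29 CPM (SD, n = 4), and D2 against D1 gave 1.31 (edgeR adjusted p = 2.07e-12). Elovl6, a fatty acid elongase, fell by 0.28 ± 0.06 (adjusted p = 0.00261) and was 0.63 higher than with D1. The other 2 were the tubulin genes Tubb6, which fell by 0.48 ± 0.06, and Tubb5, which fell by 0.26 ± 0.05. In both tubulin genes the match is coding sequence in the canonical transcript and 3′-UTR only in another transcript, and when 3′-UTRs of canonical transcripts were used, 2 of 29 genes with an 8-base match were called lower. The matched stretches that could be shown are given below in the order Rnf115 (chr3:96697508-96697527, plus strand, exon 9 of 9, 3′-UTR), Elovl6 (chr3:129427180-129427199, plus strand, exon 4 of 4, 3′-UTR) and Tubb5 (chr17:36146594-36146613, minus strand, coding in the canonical transcript), in GRCm39, with the match in capitals.
Rnf115: ggaattgtATCGACAAccaa
Elovl6: gaaaaataATCGACAAaaga
Tubb5: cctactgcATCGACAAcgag

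Of the called genes with a 7-base match, 7 were higher and 4 lower. Of the 157 mer7m8 genes 1.91% were called higher and 1.27% lower, and of the 105 mer7A1 genes 3.81% and 1.90%. Genes without a match had 3.24% and 3.06%. Jag1, a Notch ligand, was at 208 to 229 CPM with D2 and 142 to 189 CPM in mock, without overlap, and rose by 0.40 ± 0.06 (edgeR adjusted p = 4.7e-05), standing 0.72 above its level with D1. Enpep, glutamyl aminopeptidase, rose by 0.47 ± 0.13, the mitochondrial acylglycerol kinase Agk by 0.47 ± 0.14, Tram2 by 0.43 ± 0.12 and the peptide hormone gene Cck by 0.30 ± 0.07. The 3′-UTR of the canonical transcript held no match in Enpep and Agk. The 4 lower ones were Rad23b (-0.24), the growth hormone receptor gene Ghr (-0.23), Rab31 (-0.21) and Sh3d19 (-0.16), named after their values were seen.

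Of the 31 gene lists, cell cycle and DNA replication genes had the most members called. These genes drive entry into S phase, copy DNA and run mitosis, and they become active in a share of cultured hepatocytes. Of 39 listed and tested, 25 were called lower with D2 and 0 higher (background 2.96% lower), with a median log2 fold change of -0.44 beside 0.00 for all genes, and DESeq2 called 23 lower and 0 higher. The summed hepatocyte markers stood higher with D2, as given above, and their part in this result was not tested. Without D2 replicate 3 the count was 15. In bulk RNA, fewer cycling cells and less of these mRNAs per cell cannot be told apart.

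Among regulators of mitosis, Foxm1, a transcription factor of G2/M genes, stood at 28.9, 27.2, 25.4 and 25.7 CPM with D2 against 39.8, 47.7 and 51.8 CPM (lowest, median, highest) in mock and fell by 0.79 ± 0.09 (edgeR adjusted p = 1.04e-07). Ccnb1, the mitotic cyclin B1, was at 10.3 to 13.1 CPM against 17.5, 20.3 and 30.4 CPM and fell by 0.88 ± 0.15 (adjusted p = 0.000122). Ube2c, a ubiquitin-conjugating enzyme of the anaphase-promoting complex, was at 18.4 to 22.0 CPM against 26.4 to 46.4 CPM and fell by 0.79 ± 0.11. In all 3 genes every D2 library lay below every mock library. Cyclin A2 (Ccna2) fell by 0.65 ± 0.13, the APC activator Cdc20 by 0.62 ± 0.12 and the mitotic kinase Plk1 by 0.62. Mki67, the proliferation antigen, fell by 0.55 and the topoisomerase Top2a by 0.52, again without overlap. Among genes of DNA synthesis, thymidine kinase Tk1 fell by 0.90 ± 0.19 with overlapping groups, the sliding clamp Pcna by 0.39 and the replicative helicase subunits Mcm4 and Mcm2 by 0.37 and 0.29. Pbk, a mitotic kinase outside the list, was the largest decrease after Hao1 among genes with a symbol that is no predicted-gene name, groups apart and at least 5 CPM in mock, from a mock median of 14.4 to 7.20 to 8.64 CPM, by 0.98 ± 0.16 (adjusted p = 7.57e-05). Kif2c, a mitotic kinesin, Chaf1b, a subunit of a chromatin assembly factor, and Tcf19 fell by 0.78, 0.78 and 0.79. The replication-dependent histone gene H4c9 fell by 0.79 ± 0.23 (adjusted p = 0.0349) at only 2.23 to 3.88 CPM.

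Genes of 3 type IV collagen chains rose. Type IV collagen forms the network of basement membranes, and its chains are encoded by gene pairs that lie head to head. Col4a2 was at 473, 540, 539 and 472 CPM with D2 and at 236, 273 and 286 CPM (lowest, median, highest) in mock, an increase of 0.90 ± 0.05 (edgeR adjusted p = 6.38e-16), the smallest p among increases named here. Its neighbour Col4a1 was at 566 to 666 CPM against 383 to 492 CPM and rose by 0.55 ± 0.06 (adjusted p = 9.58e-09). Col4a5, on chromosome X, was at 25.1, 30.2, 30.6 and 23.5 CPM against 9.26, 12.8 and 17.5 CPM and rose by 1.06 ± 0.13 (adjusted p = 3e-07). The groups overlapped in none of these 3 genes. Of the extracellular matrix and TGFβ target list, 18 of 35 members were tested and 7 were called higher and 0 lower (background 3.08% higher), with a median of 0.27. Col4a5 is not a member of this list. Besides Col4a1 and Col4a2, the called members were the metalloproteinase inhibitor Timp2 (0.76 ± 0.22), the laminin chain Lama5 (0.36 ± 0.11), the SMAD regulator Skil (0.30), fibronectin Fn1 (0.28) and nidogen Nid1 (0.27). The count was 3 without D2 replicate 2 and 2 without replicate 3. Stellate cell and fibroblast markers, of which 2 of 14 passed the filter and 1 had no read, had a summed level of 319 to 378 CPM with D2 and 301 to 376 CPM in mock, and their part in the collagen values was not tested. Itgb4, an integrin chain of epithelial cells that binds laminin, rose by 0.81 ± 0.22, and Zfp469 by 0.88 ± 0.16.

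Interferon response genes were called higher in 4 cases, but with a large spread between the D2 libraries. Rsad2, the antiviral enzyme viperin, was read at 395, 135, 484 and 171 CPM with D2 and at 58.4, 75.4 and 114 CPM (lowest, median, highest) in mock, an increase of 1.93 ± 0.34 (edgeR adjusted p = 0.00755) without overlap. Its neighbour on chromosome 12, Cmpk2, a mitochondrial nucleotide kinase, followed the same libraries at 108, 31.7, 92.3 and 39.7 CPM against 21.9, 29.3 and 34.5 CPM and rose by 1.23 ± 0.31 (adjusted p = 0.0448), with 1 D2 library inside the mock range. Cxcl10, a chemokine, was at 13.6, 4.94, 34.5 and 8.86 CPM against 1.46, 3.25 and 6.36 CPM and rose by 2.24 ± 0.53 (adjusted p = 0.0339). Replicates 1 and 3 were the high libraries in all 3 genes, and the lowest D2 library of Cxcl10 also lay inside the mock range. The double-stranded RNA sensor Tlr3 rose by 0.52 ± 0.15 (adjusted p = 0.0449). Of 36 members tested 4 were called higher and 0 lower (background 3.08% higher), the median was 0.17, and 12 passed an unadjusted p of 0.05 upwards. The count ran from 1 to 8 when single libraries were left out: 1 without D2 replicate 1, 2 without D2 replicate 3, 8 without D2 replicate 2, and 1 without mock replicate 2, 3, 4, 5, 6 or 8 (2 without replicate 7). Macrophage markers were at 15.8 to 28.1 CPM with D2 and at 16.4 to 23.5 CPM in mock.

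Some hepatocyte secretory and drug-metabolizing genes were called higher, though most members of each list did not pass the test. Ahsg, the plasma protein fetuin-A, was at 1348, 1617, 1785 and 1563 CPM with D2 and at 682, 824 and 996 CPM (lowest, median, highest) in mock and rose by 0.93 ± 0.11 (edgeR adjusted p = 0.000484) without overlap. Of 45 plasma carrier and secreted protein genes tested 5 were called higher (11.1%, background 3.08%) and 1 lower (2.22%, background 2.96%), with a median of 0.14. The higher ones included the corticosteroid carrier Serpina6 (0.40 ± 0.12) and the apolipoprotein Apoc4 (0.33 ± 0.09), and the lower one was Mttp (-0.28), which loads lipid onto apolipoprotein B. In the acute phase and NF-κB list 7 of 31 were called higher (22.6%) and 0 lower. Fgg, the fibrinogen γ chain, was at 285, 291, 331 and 292 CPM against 176, 218 and 225 CPM and rose by 0.51 ± 0.06 (adjusted p = 2.15e-07), while the metalloreductase Steap4, the chemokine Ccl2 and the serpin Serpina3n rose by 0.48, 0.33 and 0.27. In the coagulation list 5 of 31 were called higher (16.1%) and 0 lower, among them the protein Z inhibitor Serpina10 (0.56 ± 0.12), tissue factor F3 (0.38 ± 0.07) and plasminogen Plg (0.25). Fgg stands in both of these lists. Of 21 complement genes 1 was called (4.76%), vitronectin Vtn, which rose by 0.16.

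Of 29 drug-metabolizing cytochrome P450 genes tested 8 were called higher (27.6%, background 3.08%) and 0 lower, with a median of 0.22. Cyp2c54 rose by 0.54 ± 0.15, Cyp2d22 by 0.51 ± 0.14, Cyp2d26 by 0.39 ± 0.12 and Cyp4f13 by 0.38 ± 0.11, and the electron donor Por, which all microsomal P450s use, by 0.22. Members of these gene families are near-identical in places, and uniquely aligned reads may divide unevenly among them. Cyp2c70, which makes muricholic acids in mice, rose by 0.39 ± 0.07 (edgeR adjusted p = 0.000399) and was the 1 bile acid gene called of 15. Among 38 conjugating enzymes 1 was higher (2.63%, below the background of 3.08%), Ugt2b36 (0.47 ± 0.11), and 3 lower (7.89%, background 2.96%), the glutathione transferases Gsta1 and Gstm1 (-0.33 and -0.25) and the sulfotransferase Sult2a8, which was near the detection limit at 0.411 to 1.11 CPM.

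Several glycolytic genes fell by small amounts. Of 36 tested in the glucose metabolism list 9 were called lower (background 2.96%) and 0 higher, with a median of -0.07. Ldha, lactate dehydrogenase A, was at 719, 660, 656 and 709 CPM with D2 and at 765, 821 and 914 CPM (lowest, median, highest) in mock and fell by 0.27 ± 0.05 (edgeR adjusted p = 0.000763) without overlap. Glycogen phosphorylase Pygl fell by 0.32 ± 0.06, phosphofructokinase Pfkl by 0.28 ± 0.08 and triosephosphate isomerase Tpi1 by 0.28 ± 0.05, and Pgam1, Pkm, Pgk1, Eno1 and Gapdh fell by 0.16 to 0.26. The count was 5 without D2 replicate 2 and 5 without replicate 3. In lipid synthesis, Msmo1, a sterol C4-methyl oxidase, was at 272, 285, 295 and 342 CPM against 421, 505 and 521 CPM and fell by 0.71 ± 0.06 (adjusted p = 8.73e-10). It was the 1 gene called lower of 25 cholesterol synthesis genes tested (4%, background 2.96%), and 5 were called higher (20%, background 3.08%). The higher ones included Dhcr7 (0.32 ± 0.09) and Sc5d (0.26 ± 0.05), which act late in the pathway. At 10 nM against mock, and at 50 against 0.1 nM, 0 of 25 were called higher. Mlxipl, the carbohydrate-responsive factor ChREBP, fell by 0.56 ± 0.15 and the phosphatidate phosphatase Lpin1 rose by 0.24 ± 0.06. Of 53 genes of urea and amino acid metabolism 3 fell (5.66%, background 2.96%) and 0 rose: ornithine transcarbamylase Otc by 0.63 ± 0.15, serine hydroxymethyltransferase Shmt1 by 0.52 ± 0.10 and Dbt, a subunit of branched-chain ketoacid dehydrogenase, by 0.29 ± 0.07. In the glyoxylate and peroxisomal oxidase list 2 of 12 genes were called lower (16.7%, background 2.96%) and 0 higher. Hao1, the gene that D2 targets, is 1 of these 2, so that call was set by the design.

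Ribosomal protein mRNAs had small negative log2 fold changes. All 80 tested had a log2 fold change below 0, from -0.31 to -0.01, with a median of -0.14, and 14 were called lower (17.5%, background 2.96%). Rpl22l1, Rpl5, Rps18 and Rps27l showed the largest changes among them, -0.31, -0.26, -0.24 and -0.22, and in none of the 14 were the groups apart. The count depended on single libraries: it was 1 without D2 replicate 3, 2 without D2 replicate 2, 8 without D2 replicate 1 and 30 without D2 replicate 4, and 24, 22, 8, 8 and 9 without mock replicates 1, 2, 3, 4 and 7. Nuclear-encoded respiratory chain genes had a median of -0.08 with 2 of 77 called, Uqcrb and Atp5c1, both lower, a share of 2.60% that is below the background of 2.96%. None of the 9 mitochondrially encoded genes tested was called by edgeR, although 7 passed an unadjusted p of 0.05 upwards and DESeq2 called 1. Their median was 0.11.

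Genes of stress and signalling moved in small numbers. Of 25 immediate early genes 7 were called higher (background 3.08%) and 0 lower: the antiproliferative factor Btg2 rose by 0.56 ± 0.07 (143 to 169 CPM against 82.9 to 114 CPM in mock, edgeR adjusted p = 3.04e-07), Egr1 by 0.33 ± 0.07, Zfp36 by 0.31 ± 0.07, Atf3 by 0.29 ± 0.09, and Myc, Dusp6 and Dusp1 by 0.24, 0.22 and 0.17. In the p53 list, 4 of 28 rose (14.3%), including the CDK inhibitor Cdkn1a (0.28 ± 0.05), Plk3 (0.33 ± 0.07) and Plk2 (0.29 ± 0.06). Of 53 lysosome genes 9 rose (17.0%) and 0 fell, among them progranulin Grn (0.29 ± 0.06), the cholesterol carrier Npc2 (0.23) and the peptidase Tpp1 (0.22). In the integrated stress and unfolded protein list, 43 tested, 3 rose (6.98%, background 3.08%), Slc3a2 (0.41 ± 0.06), Slc7a1 and Atf3, and 3 fell (6.98%, background 2.96%), the serine synthesis enzyme Phgdh (-0.37 ± 0.06) and the chaperones Hsp90b1 and Calr. Of 46 heat shock and proteasome genes 1 was called (2.17%, below the background of 3.08%), the small chaperone Hspb1 (0.35 ± 0.08). No NRF2 target of 25 was called by edgeR, 5 passed an unadjusted p of 0.05 (2 upwards and 3 downwards), and DESeq2 called 2 higher. In the cytoskeleton list 7 of 51 rose (13.7%) and 4 fell (7.84%), and the 4 that fell were all tubulins (Tubb6, Tuba1b, Tubb5 and Tuba1c). Epcam, a cholangiocyte and progenitor marker, rose by 1.32 ± 0.29 (adjusted p = 0.00363) at low levels, 4.05, 5.76, 3.30 and 4.65 CPM against 0.585, 1.65 and 2.81 CPM in mock, and was the 1 of 7 tested cholangiocyte markers called.

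**Figure D3:**
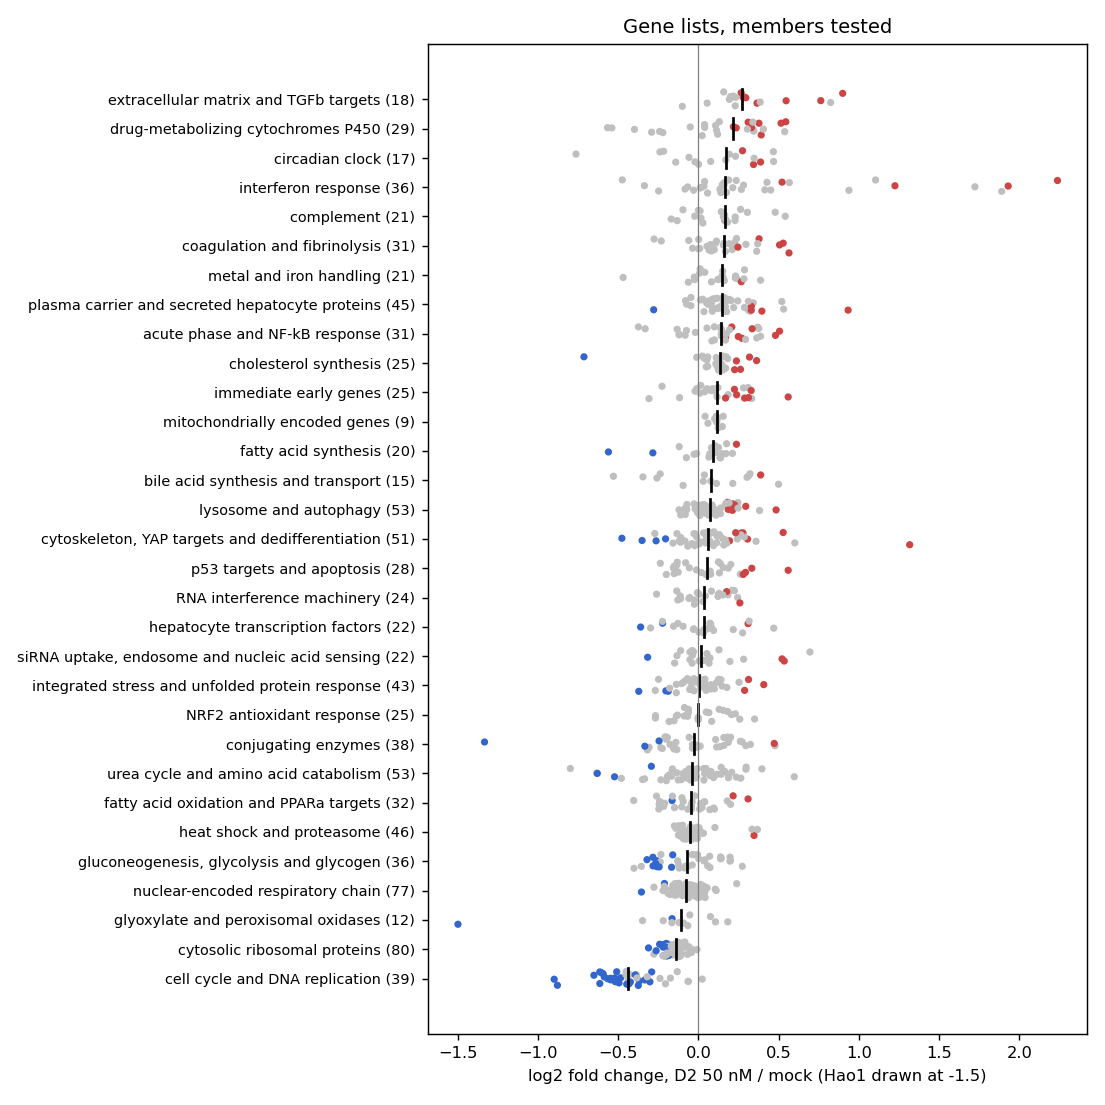
Log2 fold change of D2 50 nM over mock (x axis) for the tested members of 31 gene lists (y axis, number tested in brackets), with called genes in red (higher) and blue (lower), other genes in grey and the median as a black bar. The cell cycle list lies lowest with a median of -0.44 and the extracellular matrix list highest with 0.27. Hao1 (-4.25) is drawn at the edge.

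The remaining genes with the largest changes belonged to no common list. Trdc, the T cell receptor δ constant gene, was at 68.0, 59.9, 46.2 and 56.5 CPM with D2 and at 80.7, 115 and 122 CPM in mock and fell by 0.93 ± 0.13 (edgeR adjusted p = 0.000705), while the T cell marker Cd3e stood at 2.44 ± 0.87 and 2.17 ± 1.32 CPM (SD, n = 4 and 8) and was not called. Tff1, a secreted trefoil peptide of mucosal cells, fell by 0.82 ± 0.12 and Derl3, of the endoplasmic reticulum degradation pathway, by 0.78 ± 0.18. On the other side, the mucin Muc5ac rose by 0.92 ± 0.20, at 6.98 to 8.86 CPM against 2.92 to 5.76 CPM. The ubiquitin ligase Rnf167 rose by 0.86 ± 0.13 (adjusted p = 3.49e-05), the apoptotic nuclease Dffb by 0.89 ± 0.21, the transporter-family gene Slc12a9 by 0.92 ± 0.22, Fam43a by 0.99 ± 0.22 and the axonal kinesin Kif1a by 0.80 ± 0.14.

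More genes were called at the higher doses of D2. Against the same 8 mock libraries, edgeR called 1 gene at 0.1 nM and 1 at 1 nM (0.00885% and 0.00886% of those tested), in both cases Hao1, and 255 at 10 nM (2.26%), of which 132 were higher (1.17%) and 123 lower (1.09%). At an unadjusted p of 0.05 the numbers were 455, 644 and 1445. Cell cycle genes had medians of -0.07, -0.13, -0.34 and -0.44 at 0.1, 1, 10 and 50 nM, with 0, 0, 9 and 25 of 39 called lower. The matrix list had medians of 0.05, 0.07, 0.17 and 0.27. Col4a2 stood at 287 ± 24.9, 305 ± 20.2, 474 ± 39.8 and 506 ± 38.7 CPM (SD, n = 4 each) in that order. Msmo1 stood at 513 ± 56.2, 443 ± 28.3, 280 ± 13.3 and 298 ± 30.7 CPM, so both genes had most of their change by 10 nM. Interferon genes had no such order, with medians of -0.28, 0.14, -0.09 and 0.17 and Rsad2 reached 263 CPM in 1 library at 1 nM.

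**Figure D4:**
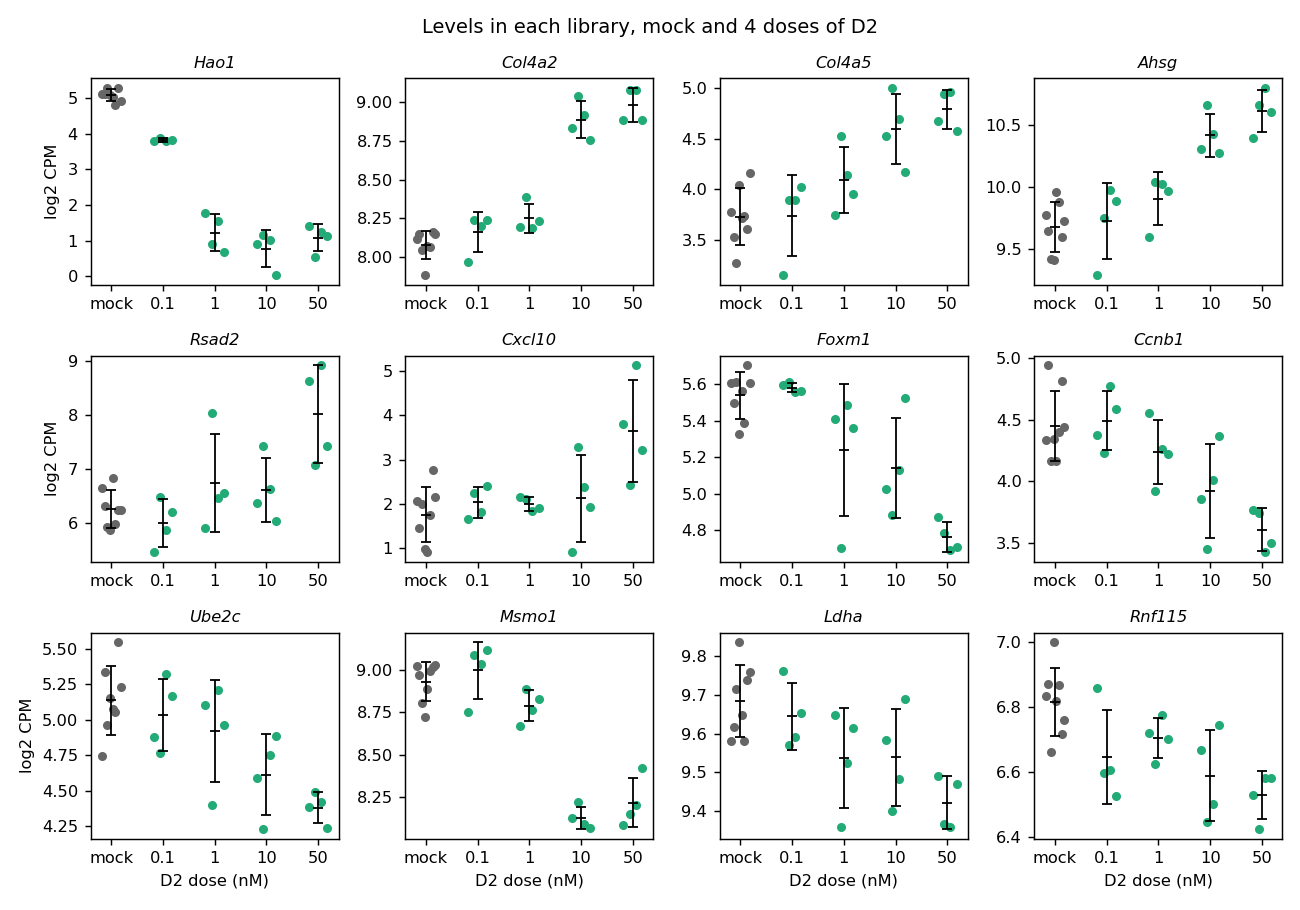
Level of 12 genes in log2 CPM (y axes differ between panels) in 8 mock libraries (grey) and in 4 libraries at each dose of D2 in nM (green), with mean and SD in black. Hao1 is low from 1 nM on, Col4a2 and Msmo1 change between 1 and 10 nM, and Rsad2 and Cxcl10 vary widely between libraries of 1 dose.

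The direct comparison of 50 with 0.1 nM of D2, which leaves out mock and keeps siRNA and transfection in both groups, called 205 of 11100 genes (1.85%), 98 higher (0.883%) and 107 lower (0.964%). Cell cycle genes were again lower, 13 of 39 with 0 higher (background 0.964% lower) and a median of -0.35. Several other lists had fewer members called than against mock. Called higher were 2 of 18 matrix, 4 of 28 cytochrome P450 and 3 of 25 immediate early genes (background 0.883%). Of 53 lysosome, 17 circadian clock and 25 cholesterol synthesis genes 0 were called higher. Called lower were 3 of 36 glucose metabolism, 1 of 80 ribosomal protein, 1 of 28 cytochrome P450 and 1 of 25 cholesterol synthesis genes. Foxm1 gave -0.83 (edgeR adjusted p = 2.5e-06), Ccnb1 -0.92, Col4a2 0.82 (adjusted p = 3.96e-09), Col4a5 1.04, Msmo1 -0.78 and Trdc -0.92. Hao1 gave -2.97. The largest increases by the naming rule were in the interferon-inducible genes Trim30a (1.84) and Oas1b (1.29), followed by Col4a5, and the largest decreases after Hao1 were in Ivl (-1.88), at 0.776 to 2.06 CPM, and Derl3 (-0.94). Of the interferon list 5 of 36 were called higher and 0 lower (background 0.883% higher), all 36 had a log2 fold change above 0, 24 passed an unadjusted p of 0.05 and the median was 0.46. The 0.1 nM libraries were themselves low in this list. Against mock, 33 of 36 members were below 0 at 0.1 nM, with a median of -0.28. There 13 passed an unadjusted edgeR p of 0.05 downwards and 0 upwards. Rsad2 and Ahsg, at 2.16 (adjusted p = 0.137) and 0.87 (adjusted p = 0.0513), were not called here. The count was 103 without D2 50 nM replicate 3, 130 without replicate 2 and 123 without D2 0.1 nM replicate 4, and it was 320, with 172 higher and 148 lower, without the filter on low counts.

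At 50 nM D2 was set against 3 other siRNAs, each in its own fit: D1, of the same sequence with no GNA, D3, with GNA-isoC in place of GNA-C, and D5, a Ttr siRNA with GNA-G in its seed. Against D1, 1549 of 11033 genes were called (14.0%), 914 higher (8.28%) and 635 lower (5.76%). Against D3 there were 1093 of 11137 (9.81%), 664 higher (5.96%) and 429 lower (3.85%). Against D5 there were 167 of 11016 (1.52%), 51 higher (0.463%) and 116 lower (1.05%), and this count was 103 without D2 replicate 1 and 100 without D2 replicate 3. The 3 fits share the D2 libraries.

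Cell cycle genes stood higher with D2 than with D1 and, in part, than with D3. Against D1, 28 of 38 members were called higher with D2 and 0 lower (background 8.28% higher), with a median of 0.74. Against D3, 12 of 39 were higher and 1 lower (background 5.96% and 3.85%), with a median of 0.27. Against D5, 0 of 39 were called by edgeR or DESeq2, 2 passed an unadjusted p of 0.05 and the median was 0.00. Ube2c was at 20.4 ± 1.52 CPM with D2, 6.47 ± 2.37 with D1, 15.6 ± 1.23 with D3 and 20.9 ± 3.88 with D5 (SD, n = 4 each), where mock had 35.2 ± 6.09 (n = 8). D2 was higher than D1 by 1.60 (edgeR adjusted p = 1.63e-07), and the 95% interval of the difference from D5 ran from -0.31 to 0.25. Ccna2 was 1.47 higher than with D1 and 0.56 higher than with D3, and its interval against D5 was -0.17 to 0.31. Ccnb2, another mitotic cyclin, was among the 3 largest increases against D1 (2.50), with Cdh17, a cadherin (2.60), and Casc4 (2.20), none of which has a guide seed match in its longest 3′-UTR.

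The collagen genes stood lower with D2 than with D3. Col4a1 was lower with D2 than with D1 by 0.39 (edgeR adjusted p = 3.21e-05) and than with D3 by 0.48, and its difference from D5 was -0.23 (adjusted p = 0.0703, 95% interval -0.35 to -0.10). Col4a2 was lower than with D3 by 0.55 and than with D5 by 0.29 and did not pass against D1 (-0.16, 95% interval -0.29 to -0.03, adjusted p = 0.122). Of the cholesterol synthesis list, 20 of 25 were higher than with D3 and 0 lower (background 5.96% higher, median 0.41). Against mock, D3 itself had 17 of 25 called lower in this list and a median of -0.26, where D2 had a median of 0.14. Compared with D1, 9 were higher with D2 and 1 lower (background 8.28% and 5.76%). Compared with D5, 0 were higher and 1 lower (background 0.463% and 1.05%). The 1 lower gene was Msmo1 against both D1 and D5. Ahsg was 0.35 above D1 and differed from D3 and D5 by -0.08 and 0.07, with intervals of -0.20 to 0.05 and -0.06 to 0.21. Other genes at the ends of these comparisons were Vil1 (-2.52), Muc3 (-2.08) and Marveld3 (-1.68), lower than with D1, Chrna4 (1.44), Elovl6 (1.36) and Hkdc1 (1.31), higher than with D3, and the iron hormone Hamp (-2.02), Avpr1a (-1.27) and Vcan (-1.26), lower than with D3. Against D5 the ends were the targets themselves, Hao1 (-3.80) and Ttr (9.64), followed by Guca2b (-1.45) and Ccn4 (-1.29) below and Zfp850 (1.74) and Gbp9 (1.51) above.

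A small set of genes was lower with D2 than in mock and lower than with the parent D1. It held 37 genes called in both fits with all libraries apart and at least 5 CPM in D2 or mock, predicted genes left out. Of all genes tested, 2.96% of 11279 were called lower than mock and 5.76% of 11033 lower than D1. The share of the 37 among genes tested in both fits was not computed. The 8 with the largest decrease from mock are described here. This selection was made after the values were seen, and both fits use the D2 libraries. Msmo1 was at 298 ± 30.7 CPM with D2, 489 ± 37.5 in mock, 431 ± 40.7 with D1, 517 ± 58.3 with D5 and 121 ± 10.1 with D3 (SD, n = 4, mock 8). D2 was 0.54 below D1, 0.79 below D5 and 1.30 above D3. Nus1, a subunit of the dolichol-forming prenyltransferase, was at 99.9 ± 5.32 CPM with D2 against 162 ± 10.6 in mock, 154 ± 13.8 with D1, 154 ± 8.07 with D5 and 74.7 ± 7.29 with D3. Sri, the calcium-binding protein sorcin, was at 75.8 ± 8.85 CPM with D2 against 116 ± 10.8 in mock, 112 ± 9.52 with D1 and 47.7 ± 1.71 with D3. The magnesium transporter gene Nipa2 was at 35.6 ± 3.10 CPM with D2, 54.4 ± 3.83 in mock, 56.1 ± 7.95 with D1 and 28.1 ± 5.14 with D3. Msmo1, Nus1, Sri and Nipa2 stood in the order D3, D2, D1 from low to high. Their place below D1 was set by the selection, and these 4 were picked from the 8 after the values were seen. D2 also differed from D3 in them by edgeR, although the libraries of Nipa2 overlapped between D2 and D3. Galnt7, a mucin-type glycosyltransferase, was 0.78 below D1 and its 95% interval against D3 was -0.11 to 0.65, while Atxn7l3b was 0.81 below D1 and 0.22 below D3. Otc and H4c9 completed the 8 and were not called against D3.

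The 3′-UTRs of these 8 genes were searched for the full guide seed match and for the match with A in place of the G opposite GNA-C. C or T at that place was counted over all tested genes only, not in these 8 genes. None of the 8 held the full match. An 8-base match to the passenger strand seed was present in Nus1 and Otc, and in 4.14% of all tested genes that have a 3′-UTR. The substitution G4A, counted from 1 at the 5′ end of the 8-base match, gave a match of 7 or 8 bases in 5 of the 8 genes and in 17.9% of all tested genes that have one, and the 8-base form was present in 4 of the 8 genes and in 2.70% of all. These are counts in genes picked by their values and carry no test. The 5 sites are shown in GRCm39 with the match in capitals: Nus1 at chr10:52312875-52312894 on the plus strand, and on the minus strand Galnt7 at chr8:57977958-57977977, Nipa2 at chr7:55581150-55581169, Atxn7l3b at chr10:112764222-112764241 and Msmo1 at chr8:65171652-65171670, all in the last exon and in the 3′-UTR of the canonical transcript.
Nus1: cataatttATCAACAAacac
Galnt7: tacaaatcATCAACAAatgt
Nipa2: ctattcatATCAACAAaaat
Atxn7l3b: aaaattaaATCAACAAataa
Msmo1: gaaaattcTCAACAAtaat

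Over all 288 genes tested with the 8-base G4A match the median log2 fold change of D2 over mock was -0.01, with 12 called lower and 9 higher (4.17% and 3.13%, against 3.04% and 3.21% of all genes with a 3′-UTR). With G4C it was 0.00 over 319 genes, 11 lower and 10 higher, and with G4T 0.00 over 331 genes, 6 lower and 8 higher. Genes with any G4A match of 7 or 8 bases made up 22.5% of those called lower, 15.2% of those called higher and 17.9% of all tested. In 3′-UTRs of canonical transcripts, 220 tested genes held the 8-base G4A match, and 12 were called lower and 6 higher (5.45% and 2.73%). Most genes with such a match were not called, which was also true of all genes tested.

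**Figure D5:**
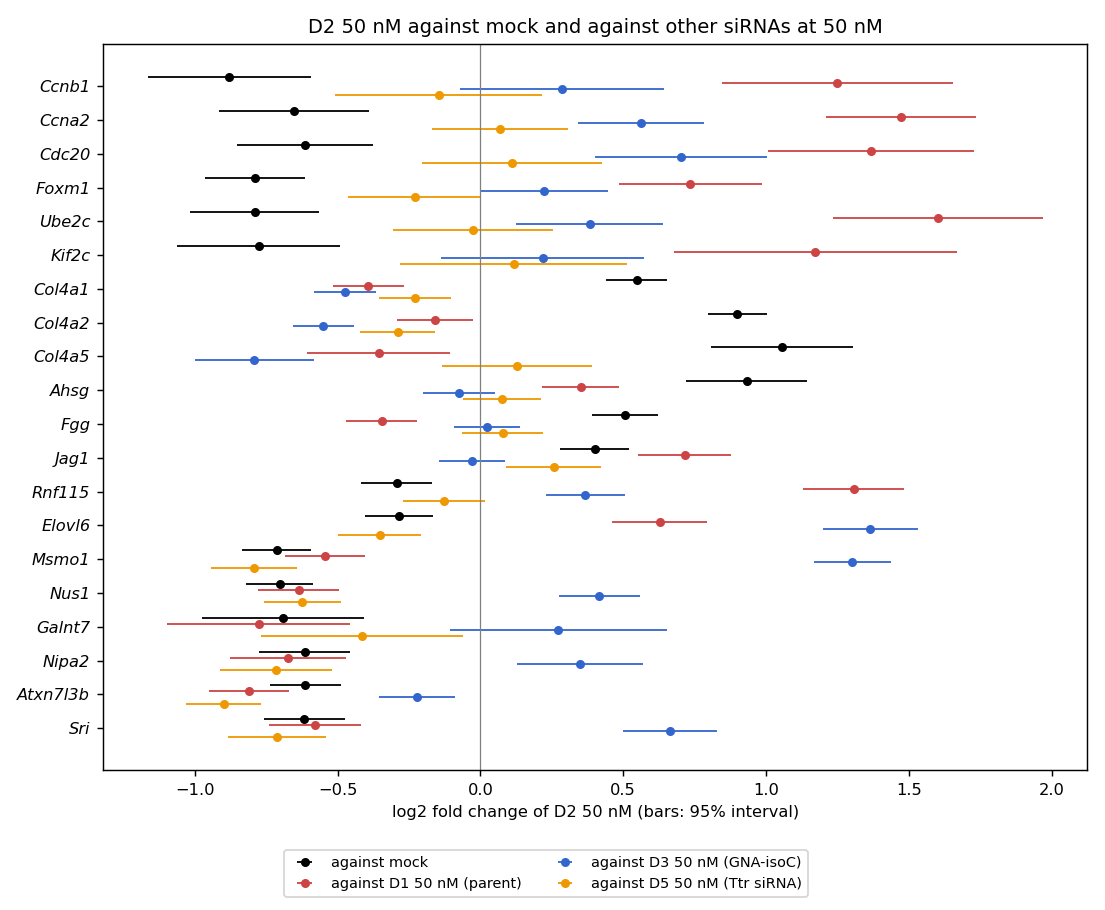
Log2 fold change of D2 50 nM (x axis, bars of the 95% interval) for 20 genes (y axis) against mock (black) and, at 50 nM, against D1 (red), D3 (blue) and D5 (orange). Mitotic genes such as Ccna2 lie below mock, above D1 and near D5, while Msmo1, Nus1, Nipa2 and Sri lie below mock, D1 and D5 and above D3. Msmo1, Nus1, Nipa2 and Sri come from a set selected for lying below mock and D1.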

How the data were processed

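RNA from primary mouse hepatocytes, isolated with Dynabeads, was made into stranded libraries and sequenced on a NextSeq500 in 2 runs per library. Per the labels and the study's methods, the authors filtered reads with fastq-mcf (mean quality 28, length 36), used STAR for alignment to GRCm39, and ran featureCounts 2.0.2 on unique alignments of mapping quality 10 or more. DESeq2 1.32.0 was their test. The annotation is not given in the sources used here. The deposited values used are these raw counts. The deposited comparison tables hold fold changes and p-values, and only their gene symbols were used (52340 of 55416 genes have one).

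Counts of both runs were summed per library, and 92 ERCC rows were left out (0 rows name no gene). Runs of 1 library agreed within sampling noise (chi-square over its degrees of freedom 0.990 to 1.05 in D2 50 nM and mock) while replicates of a group did not (at least 1.67), so no library was counted as a duplicate. Each comparison was fitted on its own groups in edgeR 4.0.16 (R 4.3.3, TMM, filterByExpr, robust quasi-likelihood F-test), with Benjamini-Hochberg adjustment over all genes tested and a threshold of 0.05. Standard errors come from the F statistic, and 95% intervals span 1.96 SE on each side. This normal multiple takes no account of the few degrees of freedom, and the intervals are not adjusted for the number of genes. They are thus somewhat narrow, and an interval can leave out 0 where the adjusted test does not pass. CPM are TMM-scaled. Totals of 3409963 to 5308584 counts limit the precision of genes at a few CPM. Genes and 3′-UTRs came from GENCODE M39, on the build of the deposited counts. Exact permutation tests used Python 3.11.15 and scipy 1.17.1. The fits were tested on simulated data.

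Hao1, Ttr, F12 and the reference gene Gapdh are named, with the 12 largest increases and decreases that passed the test with all libraries apart and at least 5 CPM in the higher group, predicted genes left out. Up to 4 called members of each of 31 gene lists and 6 marker lists follow (where none was called, up to 2 by level), with up to 8 called seed-match genes and the 3 largest changes each way in direct comparisons. Other called list members, Plk1, Mki67 and Top2a among them, were named after their values were seen, like the 8 genes lower than both mock and D1. Genes and lists were chosen with earlier results of these data known. As alternatives, the results were recomputed with DESeq2 1.42.0 (betaPrior), with RLE scaling, without a low-count filter, with all libraries in 1 fit, on each run alone, with a replicate block, with each library left out, and with other 3′-UTR choices. Substituted seed matches and canonical 3′-UTRs were added after seeing the data. Some genes that the naming rule covers are not reported here.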

Additional observations from a re-analysis of the deposited data

Results flagged for a closer look

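A library was looked at again where its gap to the nearest other library of its group, over the whole range of the group in log2 CPM, passed Dixon's 95% value. This was tested for 290 pairs of a named gene and a group, and chance alone passes about 1 in 20. In D2 50 nM, Gbp9 was at 3.78 in replicate 1 (nearest 2.93), and in replicate 1 H4c9 was at 1.41 (nearest 2.04) and Slc3a2 at 7.74 (nearest 7.92). Ccnb2 was at 3.34 in replicate 2 (nearest 3.58). In replicate 3 Cd3e was at 0.67 (nearest 1.62) and Fgg at 8.37 (nearest 8.19). In replicate 4 Cck was at 6.81 (nearest 7.05) and Mlxipl at 3.11 (nearest 3.63). In mock, replicate 4 was the low library for Col4a2 at 7.88, Egr1 at 6.10, Tpp1 at 7.86 and Ttr at 9.08, replicate 3 was low for Btg2 at 6.38 and replicate 8 was high for Tubb6 at 8.39.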

How the results depend on the processing

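Hao1 stayed lower and past the threshold under every alternative run for it (-4.39 to -4.07 with 1 library left out, -3.88 and -4.65 on run 1 and run 2 alone, -2.28 with DESeq2, whose prior shrinks fold changes by construction), and no called value of a named gene changed sign under the alternatives. With 1 library left out, the genes called against mock ranged from 298 to 752, against 0.1 nM from 103 to 204, against D5 from 100 to 168, against D1 from 1156 to 1538 and against D3 from 777 to 985. Members called ranged from 15 to 27 in the cell cycle list, 2 to 8 in the matrix list, 1 to 8 in the interferon list, 1 to 30 among ribosomal proteins and 5 to 9 in the glycolysis list. Without a low-count filter 320 genes were called against 0.1 nM. Counts of a single run gave 706 (run 1) and 705 (run 2) against D3, 108 against D5 (run 2), and 9 ribosomal proteins (run 1). Interferon members called were 7 with DESeq2 and 2 with all libraries in 1 fit. The cause of these differences was not tested. Of 118 other named genes called against mock, leaving out 1 library lost the call in 178 of 1416 cases. The call was lost for 34 of 116 on run 1 alone, 33 of 117 on run 2 alone, 18 with all libraries in 1 fit, 7 without the filter, 2 with DESeq2 and 0 with RLE scaling.

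The labels give the replicate numbers no shared source, and not every same-numbered pair passed a correlation of 0.1: deviations correlated at 0.053, 0.030, -0.010 and 0.038 between D2 50 nM and mock and at 0.258, 0.0048, 0.190 and 0.085 between 50 and 0.1 nM. In neither comparison did each D2 library correlate best with its own number. With a replicate block, which could use mock replicates 1 to 4 only, 691 genes were called against mock, with 4 matrix, 7 interferon and 2 ribosomal protein genes, and 25 of 117 named genes lost their call. Against 0.1 nM the block gave 543 (297 higher and 246 lower). At these depths, genes at a few CPM, such as Hao1 after treatment or Sult2a8, rest on few reads, and small differences between siRNAs in them were not detectable.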

Other observations

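Genes that handle the siRNA itself were among those tested. Ago2, the slicing Argonaute, was at 448, 444, 470 and 422 CPM with D2 at 50 nM and at 370, 397 and 413 CPM (lowest, median and highest) in mock, a log2 fold change of 0.18 ± 0.05 (SE, edgeR adjusted p = 0.0204) without overlap, and it was 0.42 higher than with D1 (adjusted p = 9.92e-06). Dcp2, the mRNA decapping enzyme, rose by 0.26 ± 0.07, and these 2 were the genes called of 24 in the RNA interference list (8.33% higher, against 3.08% of all genes). In the uptake and sensing list, 22 tested, the clathrin light chain Cltb fell by 0.32 ± 0.05 (4.55% lower, against 2.96% of all genes) and Tlr3 and Irf5 rose by 0.52 and 0.53 (9.09% higher).

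Of 17 clock genes 3 were called higher (17.6%, against 3.08% of all genes), Cry2 (0.39 ± 0.10), Per1 (0.34 ± 0.08) and Bhlhe40 (0.27 ± 0.05), and 0 lower. The iron exporter Slc40a1 rose by 0.27 ± 0.07 as the 1 gene called of 21 in the metal list (4.76%, against 3.08% of all genes). Among 22 hepatocyte transcription factors Foxa1 fell by 0.36 ± 0.10 and Rxra by 0.22 ± 0.06 while Ppara rose by 0.31 ± 0.09 (9.09% lower and 4.55% higher, against 2.96% and 3.08% of all genes).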
